A study of Mus musculus with 6 samples.

Results

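Regulators of the integrated stress response were followed in mouse leukemia cells labelled Alox5-/- or WT. They were the transcription factors Atf4, Ddit3, Atf3, Atf5, Cebpb and Cebpg and the effectors Trib3, Nupr1, Chac1 and Ppp1r15a, 10 of the 46983 genes in the deposited count table, and each matched 1 row by symbol. They were chosen by their Alox5-/- over WT differences in RNA level in these same libraries, so their Alox5-/- and WT values are a description and carry no test. Alox5 encodes 5-lipoxygenase, which starts leukotriene synthesis, and the series asks how it bears on leukemic stem cells and chemoresistance.

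The Alox5-/- group was made from C57BL/6J Alox5-/- bone marrow and the WT group from C57BL/6J WT bone marrow, with 3 libraries each. All 6 libraries share the MLL-AF9 retrovirus, a fusion oncogene of human leukemia that was put into sorted stem and progenitor cells that lacked lineage markers and carried Sca-1 and c-Kit (LSK cells), and none was treated with a drug. Transduced GFP+ cells went into irradiated C57BL/6J primary recipients, per the series' design text. The labels give a single cell line name per genotype and call the libraries biological replicates without saying which animals they came from. Genotype and cell line therefore cannot be told apart, and the spread behind each p-value is that between these libraries, which may be technical.

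The integrated stress response couples translation to transcription. Kinases that sense amino acid lack, unfolded protein, heme lack or viral RNA phosphorylate the initiation factor eIF2, which slows most translation but lets ATF4 be made. ATF4 then pairs with C/EBP proteins and switches on genes of amino acid supply, later joined by CHOP, the product of Ddit3. In blood cells the pathway is known for its part in the survival of stem cells under stress.

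Promoter sequences are shown first, because the binding element of ATF4 with C/EBP partners was matched in the windows of some regulators and not of others. RefSeq windows (GRCm38.p6, the assembly of mm10) of 250 bases before and 50 bases after the gene start were found for all 10 genes. The composite C/EBP-ATF element was searched as TGATGNAAN on both strands, with N for any base. It was found in the windows of 4 of the 10 genes (Nupr1, Chac1, Atf3 and Trib3) and in 3.95% of 32851 mouse promoter windows. Bases outside the windows were not searched, so a gene without a match may carry the element elsewhere. Read along each gene the match is the reverse complement, and capitals mark it in these stretches, 5′ to 3′ on the strand of the gene.

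Chac1: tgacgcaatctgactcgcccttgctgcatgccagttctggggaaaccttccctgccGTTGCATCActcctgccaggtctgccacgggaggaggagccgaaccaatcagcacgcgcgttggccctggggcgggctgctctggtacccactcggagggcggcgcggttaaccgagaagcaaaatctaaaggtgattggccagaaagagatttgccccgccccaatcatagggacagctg
Atf3: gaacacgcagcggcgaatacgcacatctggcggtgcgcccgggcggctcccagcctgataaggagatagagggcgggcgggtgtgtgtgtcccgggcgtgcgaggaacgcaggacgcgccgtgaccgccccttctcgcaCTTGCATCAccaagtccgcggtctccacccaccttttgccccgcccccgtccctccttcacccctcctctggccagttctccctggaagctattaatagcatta
Nupr1: aaagggccagATTGCATCAgacagggctt
Trib3: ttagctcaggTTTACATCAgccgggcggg

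The Chac1 stretch is chr2:119350992-119351228 on the plus strand, and its match lies 194 to 186 bases before the RefSeq start. The Atf3 stretch is chr1:191183341-191183583 on the minus strand, with the match 111 to 103 bases before the start. Nupr1 (chr7:126625563-126625591, minus strand) has its match at the same distance, 111 to 103 bases before the RefSeq start. A single GENCODE transcript was used per gene, and that of Nupr1 begins 206 bases upstream of the RefSeq start. It holds the match in an untranslated exon. The GENCODE genes Nupr1 and Atf3 reach further upstream, to chr7:126630861 and chr1:191218039, so other annotated starts of both lie outside these windows. Trib3 (chr2:152344029-152344057, minus strand) has its match at bases 14 to 22 of the RefSeq gene, while the GENCODE transcript begins 28 bases downstream of the RefSeq start and leaves the match outside it.

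The windows of Ddit3 and Ppp1r15a held other letters. They are shown because these genes stood among the largest differences without a match to that element in the window. Capitals mark an AP-1 site (TGANTCA, in 7.81% of windows) in Ddit3 and a cyclic AMP response element, CRE (TGACGTCA, in 1.79% of windows), in Ppp1r15a. Both motifs were searched on both strands, and neither match overlaps another motif searched.

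Ddit3: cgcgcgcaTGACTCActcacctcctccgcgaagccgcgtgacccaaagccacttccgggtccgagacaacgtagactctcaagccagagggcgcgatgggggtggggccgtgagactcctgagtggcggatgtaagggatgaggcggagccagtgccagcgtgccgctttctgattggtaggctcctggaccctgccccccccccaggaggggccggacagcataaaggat
Ppp1r15a: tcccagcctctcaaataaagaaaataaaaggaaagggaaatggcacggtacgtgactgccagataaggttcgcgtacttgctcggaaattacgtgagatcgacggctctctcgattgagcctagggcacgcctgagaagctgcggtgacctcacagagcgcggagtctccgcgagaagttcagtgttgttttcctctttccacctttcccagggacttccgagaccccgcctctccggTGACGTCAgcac

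The Ddit3 stretch is chr10:127290543-127290773 on the plus strand, with the match 242 to 236 bases before the RefSeq start. The Ppp1r15a stretch is chr7:45526269-45526518 on the minus strand, with the match 12 to 5 bases before the start. The endoplasmic reticulum stress element, ERSE, searched on both strands, was in none of the 10 genes' windows and in 0.119% of all windows. Windows of Atf4, Atf5, Cebpb and Cebpg held no exact match to these motifs. A match is a run of letters, not a shown binding site.

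**Figure D1:**
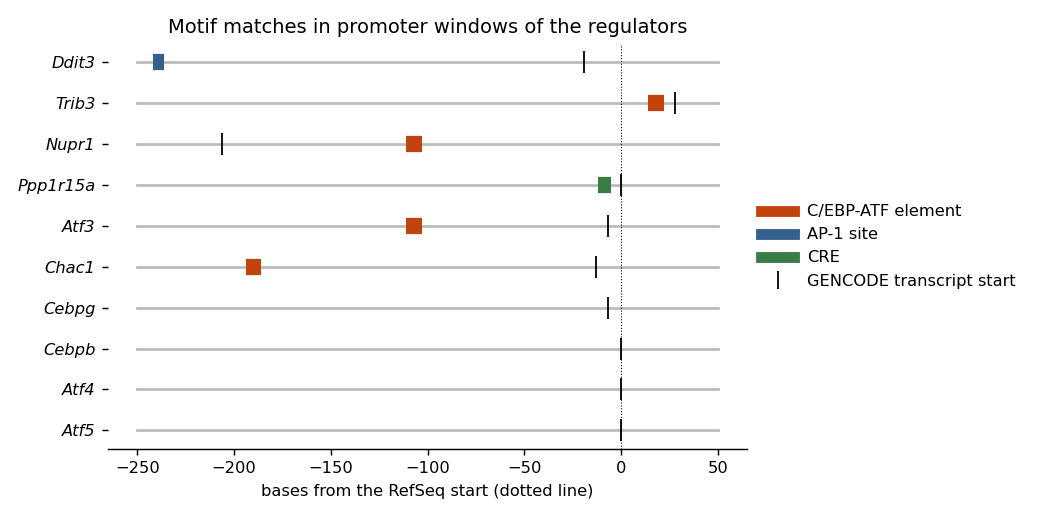
Motif matches in the promoter window of each regulator, plotted by distance in bases from the RefSeq start (dotted line). Coloured blocks are matches to the C/EBP-ATF element, the AP-1 site and the CRE. Black ticks are the starts of the GENCODE transcript used for each gene, and 1 of the 2 Atf5 windows is drawn. The C/EBP-ATF element appears in Trib3, Nupr1, Atf3 and Chac1, at the same distance in Nupr1 and Atf3.

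A second feature of these genes is the 5′ leader of the mRNA, where short upstream reading frames let ATF4 and some partners be translated when eIF2 is phosphorylated. In a single GENCODE transcript per gene, 7 of the 10 genes had at least 1 upstream AUG, against 49.4% of 17019 coding genes read the same way. Leader length was not matched in this comparison. The median leader of those coding genes was 148 bases, and of the 10 genes only Cebpb (107 bases) was shorter, Atf4 having the longest (594 bases). Atf4 had 3 upstream AUGs and Atf5 had 2, and in each of them 1 frame ran past the main start codon, as in 16.3% of coding genes. Ppp1r15a had 3 and Ddit3 had 2, all in frames that closed within the leader. Atf3, Cebpg and Nupr1 had 1 each, and Cebpb, Trib3 and Chac1 had none. RNA counts do not show how much protein was made from these leaders.

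Depth ranged from 28985597 to 38695948 gene counts per library. Alox5 itself averaged 64.2 ± 1.87 CPM (read counts scaled for library size with TMM factors) in Alox5-/- and 105 ± 1.87 CPM in WT libraries (SD, n = 3 each), so it was still detected, and the sources used here do not say which part of the gene the allele alters. Among markers of the labelled cells, Kit averaged 136 CPM in Alox5-/- and 159.7 CPM in WT libraries and Cd34 was 227 against 177 CPM, but Ly6a, which encodes Sca-1, was only 0.763 against 1.06 CPM. Defining T cell genes Cd3e and Cd3g had 0 counts in all 6 libraries, and the summed B cell markers reached 0.205 CPM in Alox5-/- and 0.314 CPM in WT libraries. Macrophage markers summed to 31.5 to 34.3 CPM in Alox5-/- and 41.0 to 44.7 CPM in WT libraries, 1 of 4 being at 1 CPM or more. Summed granulocyte and monocyte markers were 586 to 645 CPM in Alox5-/- and 783 to 883 CPM in WT libraries, with all 6 markers at 1 CPM or more. They did not move alike: Mpo averaged 65.6 ± 7.76 CPM in Alox5-/- against 197 ± 13.4 CPM in WT libraries and S100a8 8.04 ± 0.713 against 25.3 ± 1.01 CPM, while Ly6g was 6.06 ± 0.343 against 4.22 ± 0.579 CPM. Elane, the most abundant of them, overlapped between the genotypes (430.4 ± 24.4 against 486 ± 48.5 CPM). Their part in the results was not tested, and fewer cells of a type and less RNA per cell cannot be told apart in bulk RNA. Alox5-/- replicate 2 stood apart: its counts differed from the other Alox5-/- libraries by a chi-square per degree of freedom of 8.53 and 9.65, against 2.11 between those other libraries. To a lesser degree WT replicate 2 also stood apart from the other WT libraries, at 3.96 and 4.79 against 2.2 between those.

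Ddit3, Trib3, Nupr1 and Ppp1r15a were more than 3-fold higher in Alox5-/- cells, while Atf4, the factor upstream of them, was 1.10-fold higher and Atf5 was lower. Atf3 and Chac1 were 2.55-fold and 2.36-fold higher, Cebpg 1.65-fold and Cebpb 1.41-fold. The libraries of the genotypes did not overlap for 8 of the 10 genes, all higher in Alox5-/-, where 60.0% of the 13705 genes tested did not overlap and 29.7% were higher without overlap. Of all genes tested, 53.8% passed the adjusted p threshold of 0.05 in edgeR's quasi-likelihood test in either direction. A difference of at least 2-fold upward was seen in 6 of the 10, against 2.75% of all genes tested. These counts follow from how the genes were picked. The median log2 fold change (Alox5-/- over WT) was 1.29 over the 10 genes and 0.00 over all genes tested.

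**Figure D2:**
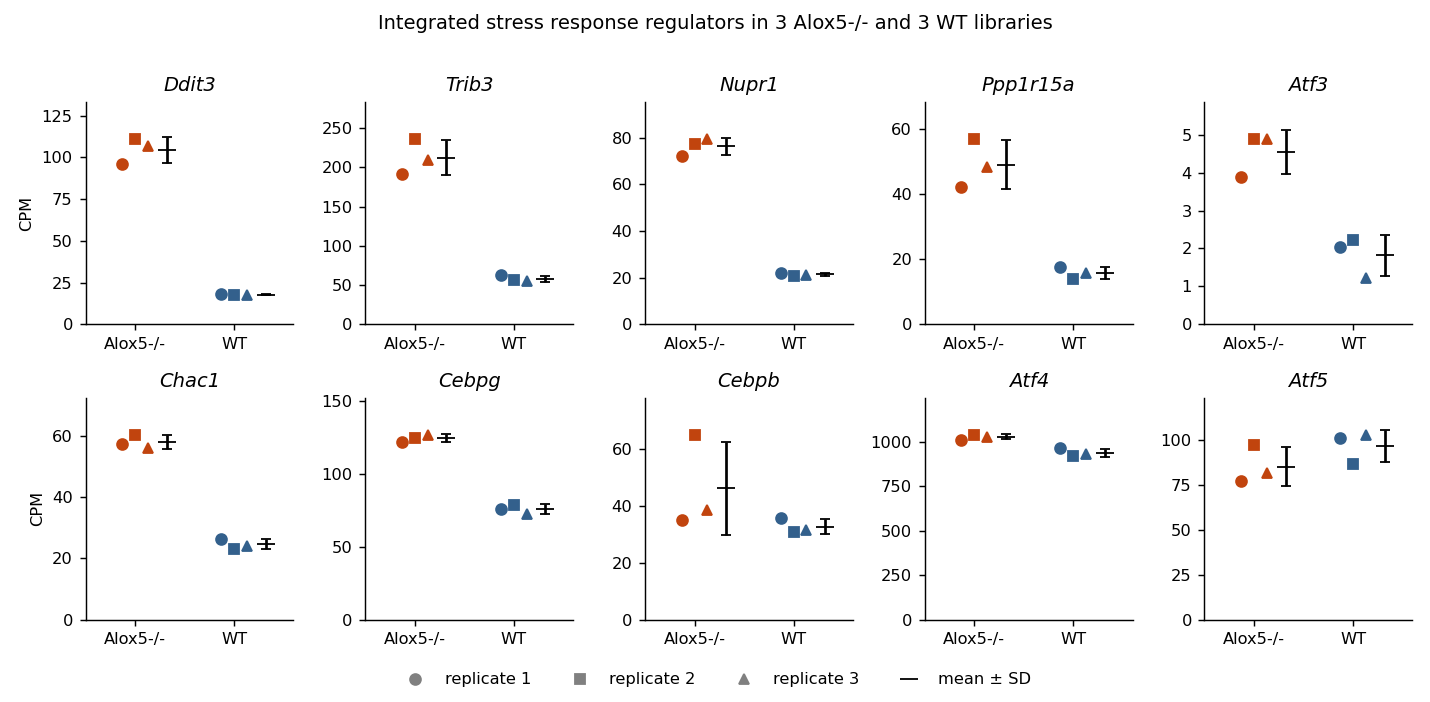
Scaled read counts (CPM) of each regulator in 3 Alox5-/- and 3 WT libraries, with a symbol per replicate and the mean ± SD beside each group. Ddit3 sits at 95.9 to 111 CPM in Alox5-/- and 17.4 to 18.1 CPM in WT libraries, while the groups overlap for Cebpb and Atf5.

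Atf4 encodes the factor at the centre of the response. It had 1012, 1039 and 1029 CPM in Alox5-/- libraries and 964, 917 and 929 CPM in WT libraries, so that the groups lay close together without overlapping. The log2 fold change was 0.13 (SE 0.03), and Atf4 lies at chr15:80255184-80257541 (mm10, plus strand). The response is known to raise ATF4 mainly through translation, which these data do not measure.

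Ddit3 encodes CHOP, a bZIP factor that pairs with C/EBP proteins and is linked to cell death under lasting stress. It had 95.9, 111 and 107 CPM in Alox5-/- libraries and 18.1, 17.5 and 17.4 CPM in WT libraries. Every Alox5-/- library was far above every WT library, and the WT libraries were nearly equal. The log2 fold change was 2.57 (SE 0.06), or 5.93-fold, and ranked 22 from the top among 13705 genes tested. Ddit3 lies at chr10:127290774-127296288 (mm10, plus strand), where its exons overlap those of Mars on the other strand. The sources used here do not give the strand setting of the counting, so reads in the shared stretch cannot be told apart. Mars, the methionyl-tRNA synthetase, averaged 224 ± 2.81 CPM in Alox5-/- and 185 ± 4.35 CPM in WT libraries, a log2 fold change of 0.27. Exons of Ddit3 also overlap those of Gm4189 on the other strand, which had 79 counts over all libraries. They overlap as well those of another GENCODE gene named Ddit3, on the same strand, which is absent from the count table.

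Atf3, a stress-induced bZIP factor, rested on few reads. Reads numbered 121, 143 and 145 for Alox5-/- libraries, against 61, 66 and 46 for WT libraries, which is 3.88, 4.89 and 4.88 CPM against 2.04, 2.22 and 1.21 CPM. The groups did not overlap, but the WT libraries spread by 29.8% of their mean, and the log2 fold change of 1.35 had the largest SE of the 10 (0.18). Atf3 lies at chr1:191170296-191218039 (mm10, minus strand).

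Cebpg encodes a C/EBP protein without an activation domain of its own that pairs with ATF4 at amino acid genes. It had 122, 125 and 127 CPM in Alox5-/- libraries and 76.0, 79.1 and 72.5 CPM in WT libraries, with little spread in either group. The log2 fold change was 0.72 (SE 0.04), and the gene lies at chr7:35046422-35056573 (mm10, minus strand).

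Cebpb, which encodes a C/EBP factor of emergency granulocyte production, varied most among the Alox5-/- libraries. It had 35.0, 64.9 and 38.4 CPM in Alox5-/- libraries, against 35.8, 30.7 and 31.6 CPM in WT libraries. Alox5-/- replicate 2 was the high one, and replicate 1 lay below the highest WT library. The log2 fold change was 0.49 (SE 0.16) with all libraries and 0.18 (SE 0.07) without Alox5-/- replicate 2. Cebpb lies at chr2:167688915-167690418 (mm10, plus strand), and its exons overlap Tmem189 on the other strand (61.7 ± 0.356 CPM in Alox5-/- and 59.8 ± 2.52 CPM in WT libraries).

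Atf5, the closest relative of Atf4, was the only one of the 10 to be lower in Alox5-/- cells. It had 77.0, 97.4 and 81.5 CPM in Alox5-/- libraries and 101, 86.8 and 103 CPM in WT libraries, and the groups overlapped through Alox5-/- replicate 2 and WT replicate 2. The log2 fold change was -0.19 (SE 0.07) with all libraries and -0.28 (SE 0.06) without Alox5-/- replicate 2. Atf5 lies at chr7:44812256-44816658 (mm10, minus strand), with exons that overlap Il4i1 and Nup62 on the other strand. Il4i1 averaged 269 ± 2.42 CPM in Alox5-/- and 256 ± 13.8 CPM in WT libraries.

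The effectors were all higher in Alox5-/- cells, by 2.36-fold to 3.68-fold. Trib3 encodes a pseudokinase that binds ATF4 and AKT and damps the response. It had 191, 236 and 209.9 CPM in Alox5-/- libraries and 62.3, 56.5 and 54.6 CPM in WT libraries, the lowest Alox5-/- library being well above the highest WT library. On the log2 scale Trib3 was 1.88 higher (SE 0.07), at rank 69 of 13705 genes tested, and Trib3 lies at chr2:152337422-152344032 (mm10, minus strand).

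Nupr1 encodes a small nuclear stress protein. It had 72.3, 77.5 and 79.4 CPM in Alox5-/- libraries and 22.1, 20.8 and 21.2 CPM in WT libraries, with tight groups far apart. Its log2 fold change was 1.84 (SE 0.05), and it lies at chr7:126623249-126630861 (mm10, minus strand).

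Chac1 encodes an enzyme that breaks down glutathione. It had 57.3, 60.3 and 56.0 CPM in Alox5-/- libraries and 26.4, 23.2 and 24.1 CPM in WT libraries. Again the groups were tight and apart, with a log2 fold change of 1.24 (SE 0.05), and the gene lies at chr2:119351229-119354381 (mm10, plus strand).

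Ppp1r15a encodes GADD34, a regulatory subunit of the phosphatase that removes phosphate from eIF2. It had 42.1, 56.9 and 48.2 CPM in Alox5-/- libraries and 17.6, 13.9 and 15.8 CPM in WT libraries, which did not overlap but spread more than Nupr1 or Chac1. Its log2 fold change was 1.64 (SE 0.10), and the gene lies at chr7:45522916-45526268 (mm10, minus strand).

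**Figure D3:**
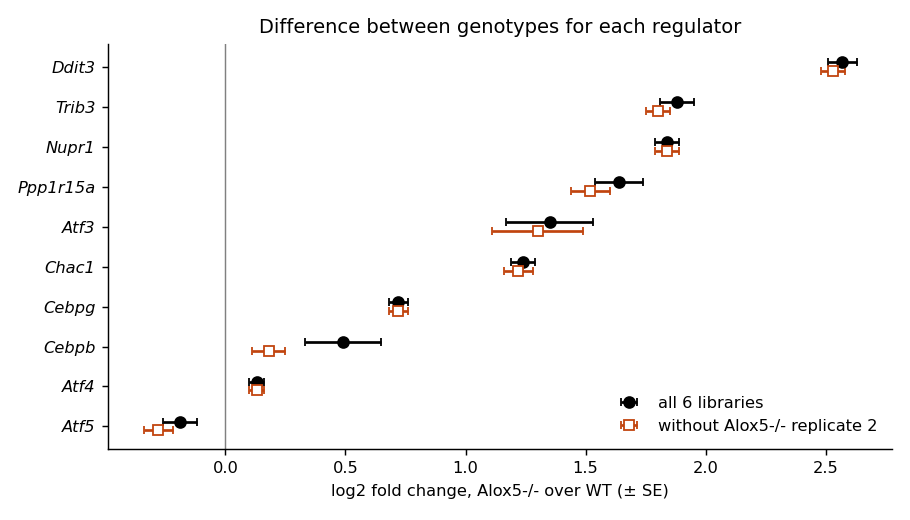
Log2 fold change of each regulator, Alox5-/- over WT, with its SE, from all 6 libraries (filled circles) and without Alox5-/- replicate 2 (open squares). Leaving that library out moves Cebpb to 0.18 and Atf5 to -0.28, and leaves Ddit3 at 2.53 and Trib3 at 1.80.

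Per length of exon, the order of the genes differed between the genotypes. As levels in RPKM (CPM per kilobase of merged exons), Atf4 led with 436 ± 5.77 in Alox5-/- and 397 ± 10.5 in WT libraries. Next in Alox5-/- cells came Trib3 (99.9 RPKM), Ddit3 (61.1 RPKM), Atf5 (42.8 RPKM) and Chac1 (35.4 RPKM). Next in WT cells came Atf5 (48.6 RPKM), Trib3 (27.2 RPKM), Cebpb (21.7 RPKM) and Chac1 (15.0 RPKM), while Ddit3 (10.3 RPKM) stood in the lower part of the order. In WT cells no neighbours in the order shared a range. In Alox5-/- cells the libraries of Cebpb ran from 23.3 to 43.2 RPKM and overlapped those of Atf5, Chac1 and Nupr1. Atf3 was last in both genotypes, at 2.11 RPKM in Alox5-/- and 0.846 RPKM in WT libraries.

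Within each genotype the regulators leaned toward the same libraries. Of the Alox5-/- libraries, replicate 2 held the highest value for 8 of the 10 genes, replicate 3 for the other 2 and replicate 1 for 0, against 36.4%, 30.1% and 33.5% of all genes tested. Cebpb deviated most in replicate 2, by 0.55 in log2 CPM from the mean of its group, followed by Ppp1r15a (0.22), Atf5 (0.20) and Trib3 (0.16), while Cebpg and Nupr1 hardly deviated (0.00 and 0.02). Of the WT libraries, replicate 1 held the highest value for 7 of the 10 genes, against 29.6% of all genes tested. Apart from Cebpb and Atf3, each deviation within a genotype was at most 0.22 in log2 CPM in either direction.

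**Figure D4:**
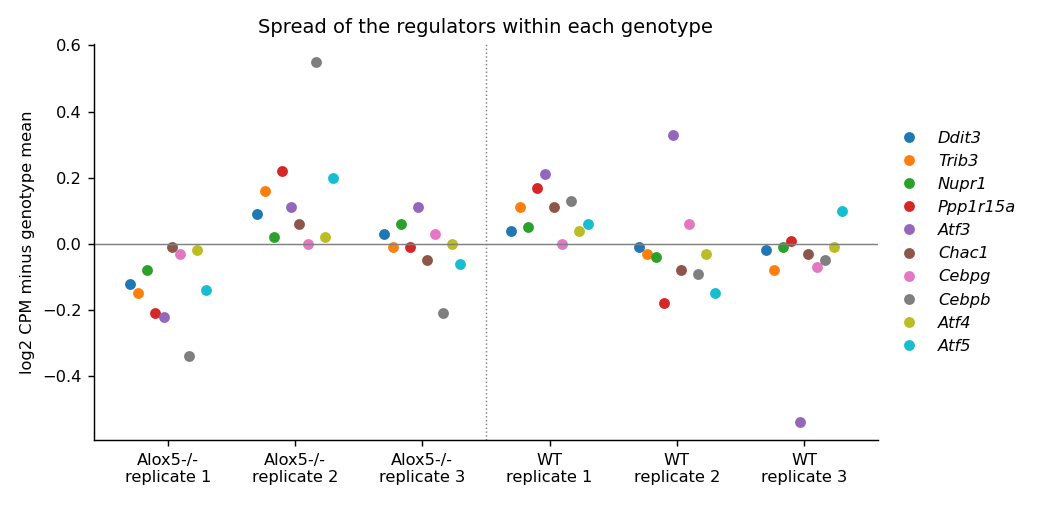
Log2 CPM of each regulator minus the mean of its genotype, for every library. Points of Alox5-/- replicate 2 lie at or above 0, with Cebpb at 0.55, and points of Alox5-/- replicate 1 lie below 0; Atf3 spreads most in WT libraries.

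Genes closest to Ddit3 and Trib3 in level relative to WT were sought among 10210 other genes averaging 5 CPM or more. Distance was taken in log2 CPM over the 6 libraries, centred on the WT mean. It takes in the Alox5-/- over WT difference, on which the regulators were chosen. A small distance therefore does not show that genes vary together within a genotype. Nearest to Ddit3 were Cldn11, a tight junction protein (distance 0.46), Frzb, a Wnt antagonist (0.53), Ttc25 (0.57), F7, a clotting factor (0.69), and Mamdc2 (0.83). Nearest to Trib3 were Agpat9, an acyltransferase (0.13), Ctla2a (0.20), Nupr1 (0.20), Hid1 (0.26) and Col4a1, a collagen (0.27). Of these 10 genes, Nupr1 alone is among the regulators described.

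Lists of genes known to be switched on by ATF4 were counted next, with the regulators themselves left out of every list. These lists and those that follow were chosen with earlier results of these data known. Their counts and p-values are therefore not independent of these data. All 10 tested amino acid transporters rose in Alox5-/- cells, with a median log2 fold change of 0.51 against 0.00 over all genes tested, where 26.8% were called higher and 27.0% lower (edgeR's quasi-likelihood test, adjusted p under 0.05). Slc6a9, a glycine transporter, averaged 55.3 ± 2.15 CPM in Alox5-/- and 19.7 ± 1.74 CPM in WT libraries, higher by 1.49 on the log2 scale (edgeR adjusted p = 5.49e-11, SE 0.06). Slc1a4, a transporter of small neutral amino acids, was 61.2 ± 3.55 against 25.4 ± 0.279 CPM (1.27, SE 0.05; edgeR adjusted p = 4.95e-11). Slc7a11 and Slc38a2, carriers of cystine and glutamine, rose by 1.02 and 0.60 on the log2 scale. The smallest rise in the list was 0.09. Over left-out libraries the number called higher ran from 8 to 10, being 8 without Alox5-/- replicate 3 or WT replicate 1. Slc7a3 and Slc43a1 were too low to test.

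Of the amino acid synthesis and one-carbon genes, 11 of 14 were higher, 1 lower and 2 not called (median 0.55). The shares over all genes tested were 26.8% higher and 27.0% lower. Gpt2, the mitochondrial alanine transaminase, averaged 157 ± 4.84 CPM in Alox5-/- and 66.2 ± 5.45 CPM in WT libraries, up by 1.25 on the log2 scale (edgeR adjusted p = 4.15e-11, SE 0.05). Aldh1l2, a mitochondrial folate enzyme, Cth, which makes cysteine, and Psph, the last step of serine synthesis, rose by 1.22, 1.15 and 0.75. Psat1, the serine pathway transaminase, was not called, with 972 ± 28.2 CPM in Alox5-/- and 938 ± 3.92 CPM in WT libraries (log2 fold change 0.05; edgeR adjusted p = 0.179), but was called higher without Alox5-/- replicate 2 (0.08; edgeR adjusted p = 0.0359) and with upper-quartile scaling (0.0468). Mthfd1l, another folate enzyme, was not called either (-0.04). The lower gene was Cbs, which condenses serine with homocysteine, with only 2, 3 and 4 counts in Alox5-/- and 18, 13 and 31 counts in WT libraries.

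Cytosolic tRNA synthetases rose by small amounts, 11 of 12 being higher and 0 lower (median 0.29), against 26.8% and 27.0% of all genes tested. The seryl enzyme Sars averaged 349 ± 8.48 CPM in Alox5-/- and 230.0 ± 3.41 CPM in WT libraries, up by 0.60 on the log2 scale (edgeR adjusted p = 9.08e-10, SE 0.03). Wars, Gars and Cars rose by 0.57, 0.40 and 0.40, and Yars was not called (0.04; edgeR adjusted p = 0.258). The tyrosyl enzyme was the exception among the 12.

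Other targets of ATF4 and CHOP split, with 14 of 20 higher, 4 lower and 2 not called (median 0.40). Among all genes tested, 26.8% were higher and 27.0% lower. Gadd45a, a growth arrest gene, had 132, 172 and 148 CPM in Alox5-/- and 49.1, 48.1 and 43.9 CPM in WT libraries, up by 1.68 on the log2 scale (edgeR adjusted p = 1.71e-10, SE 0.08). Ndrg1, a stress and hypoxia gene, Sqstm1, the autophagy receptor p62, and Sesn2, a brake on mTORC1, rose by 1.13, 0.74 and 0.60. The deepest fall was in Stc2, a secreted glycoprotein, with 6.32, 5.78 and 5.11 CPM in Alox5-/- and 68.7, 59.8 and 51.5 CPM in WT libraries. Its log2 fold change of -3.38 (edgeR adjusted p = 3.69e-12, SE 0.11) was opposite in sign to the 14 genes of the list that rose. Cdkn1a, the p53-induced inhibitor p21, and Tnfrsf10b, a death receptor, fell by 0.76 and 0.52. Adm2, a peptide hormone, fell by 0.90, a call that was lost without Alox5-/- replicate 3 (edgeR adjusted p = 0.0529) or WT replicate 1 (0.0614). Rab32 (-0.06) and Bbc3, the death gene PUMA (0.25), were not called. Bbc3 had 17.0, 26.0 and 17.2 CPM in Alox5-/- and 18.5, 13.7 and 18.1 CPM in WT libraries, so the groups overlapped. It was called higher in the run with no filter on low counts, although it passes that filter. Over left-out libraries its log2 fold change ran from 0.03 to 0.36. Gdf15, Fgf21, Trib2 and Stbd1 were too low to test.

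Folding genes of the endoplasmic reticulum, which answer to the ATF6 and XBP1 arms of the unfolded protein response, mostly fell. Of 21 tested, 14 fell, 4 rose and 3 were not called (median -0.24), against 27.0% lower and 26.8% higher over all genes tested. Hspa5, the chaperone BiP, averaged 1048 ± 20.4 CPM in Alox5-/- and 1486 ± 59.0 CPM in WT libraries, or -0.50 on the log2 scale (edgeR adjusted p = 1.53e-08, SE 0.03). Creld2, Pdia4, a disulfide isomerase, and Manf, a secreted stress protein, fell by 0.58, 0.45 and 0.44. The genes that rose were Herpud1 (0.64), a degradation factor that ATF4 also switches on, Atf6 (0.60), Ern1 (0.41), which encodes the sensor IRE1, and Sel1l (0.27). Xbp1 (0.02), Dnajb9 (-0.07) and Sec61b (0.00) were not called. Derl3 was too low to test.

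Other genes that start and stop the response at eIF2 mostly differed by small amounts. Ppp1r15a, described above and higher by 1.64 on the log2 scale, was not counted in this list. Of the 16 tested in the list, 9 fell, 1 rose and 6 were not called (median -0.10). Over all genes tested, 27.0% were called lower and 26.8% higher. Eif2ak3, the endoplasmic reticulum kinase PERK, averaged 57.8 ± 3.21 CPM in Alox5-/- and 68.3 ± 2.49 CPM in WT libraries, or -0.24 on the log2 scale (edgeR adjusted p = 0.00037, SE 0.05). The kinase of viral RNA, Eif2ak2, was not called (-0.03; edgeR adjusted p = 0.522), nor were Eif2s1, the subunit that is phosphorylated (-0.07; edgeR adjusted p = 0.0923), and Gcn1l1, a partner of the amino acid sensor (-0.04). Eif2s1 was called lower without WT replicate 1 (-0.10; edgeR adjusted p = 0.0414). Eif2b1 and Eif2b5, of the exchange factor that the response inhibits, fell by 0.34 and 0.16, and Eif2s2 rose by 0.21. The largest fall was in Eif2s3x, an eIF2 subunit gene on the X chromosome that escapes X inactivation, with 27.8 ± 1.70 CPM for Alox5-/- libraries against 50.9 ± 2.17 CPM for WT libraries (-0.87, SE 0.05; edgeR adjusted p = 4.68e-09). Reads of Xist, made from the inactive X chromosome, averaged 181 ± 14.3 CPM over Alox5-/- libraries against 1782 ± 117 CPM over WT libraries, and Eif2s3y had 0 counts in all 6. Its part in the Eif2s3x result was not tested.

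**Figure D5:**
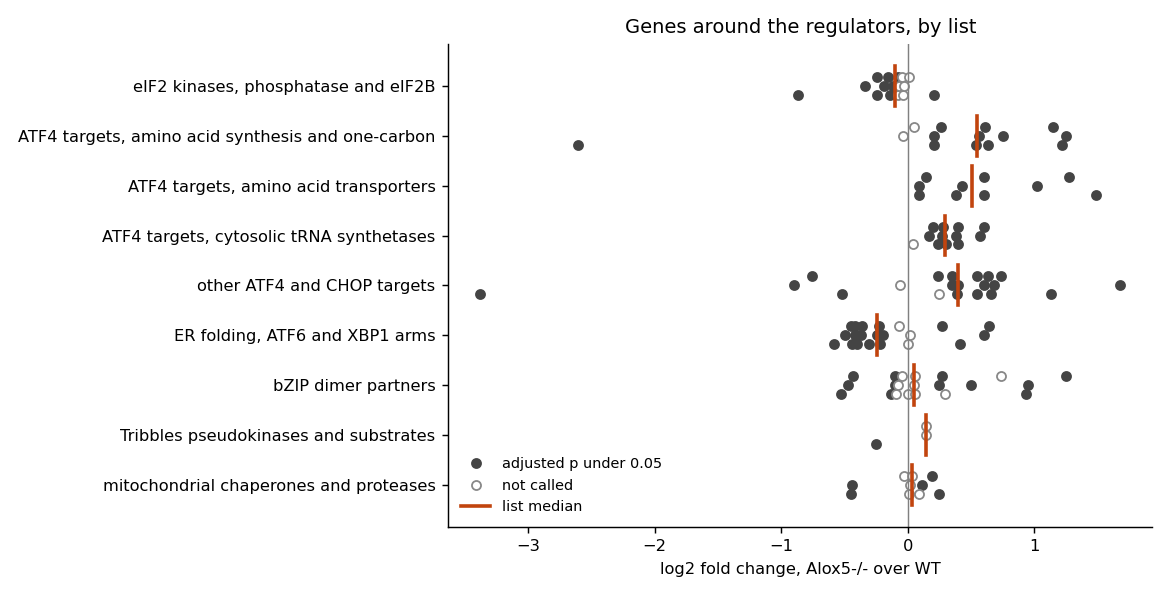
Log2 fold change, Alox5-/- over WT, of every tested gene in 9 lists around the regulators, with filled points for adjusted p under 0.05, open points for genes not called and a bar at the list median. Lists of ATF4 targets have medians of 0.29 to 0.55, and endoplasmic reticulum folding genes a median of -0.24. The lists were chosen with earlier results of these data known.

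Without Alox5-/- replicate 2 these counts were close to those with all libraries. Amino acid transporters numbered 10 higher of 10, synthesis genes 12 higher and 1 lower of 14, tRNA synthetases 11 higher of 12, and other targets 14 higher and 4 lower of 20. Endoplasmic reticulum genes numbered 4 higher and 14 lower of 22, and eIF2 genes 1 higher and 8 lower of 16. The 6 regulators that were at least 2-fold higher kept log2 fold changes of 1.22 to 2.53.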

How the data were processed

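Poly-A RNA of sorted cells was amplified with the SMARTer kit, per the labels' protocols. The authors deposited raw read counts per gene; HTSeq, DESeq2 and the build mm10 are named in the submitters' processing notes, and the sources used here do not give the aligner, annotation release, versions or strand setting. The 5 summary rows that name no gene (39.14 to 40.05% of reads, mostly aligned to more than 1 place) were left out, and 27 symbols that had become dates were restored by identifier.

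Genes were tested with edgeR 4.0.16 in R 4.3.3 (TMM scaling, default filter on low counts, quasi-likelihood F-test between the genotypes with all 6 libraries, Benjamini-Hochberg adjustment over 13705 genes, threshold 0.05). The code was also run on simulated data in which few genes differed. That setting is unlike these data, so the run does not measure error rates here. SE was derived from the fold change and its F statistic. Of the 10 regulators all passed the filter. The regulators and gene lists were chosen with earlier results of these data known. From each list, up to 4 called genes per direction by smallest p and up to 3 uncalled ones by level were named. Positions, exon lengths and leaders came from GENCODE vM21 (98.95% of identifiers matched) and promoters from RefSeq. Alternatives were DESeq2 1.42.0, limma-voom 3.58.1, other scalings and filters, a replicate block and each library left out. A count of 0 allows up to 3 counts, or 0.0775 to 0.1035 CPM, for counting error only.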

Additional observations from a re-analysis of the deposited data

How the results depend on the processing

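Calls over all genes numbered 7379 and moved by less than 1.5 times under each alternative run: 6130 with a mean of at least 5 CPM, 6407 with DESeq2, 7374 with limma-voom and 6583 to 7251 with a library left out. With the replicate number as a block it was 7029; same-numbered libraries did not deviate together (correlations of -0.019, -0.066 and 0.028), so the numbers give no pairing. Over all alternatives Ddit3 ran from 2.53 to 2.63 and Trib3 from 1.80 to 1.95 on the log2 scale. Atf3 was not tested with a mean of at least 5 CPM. For the lower count of bZIP partners (6), upper-quartile scaling gave 3 and leaving out a library 3 to 6, lowest without Alox5-/- replicate 1 or WT replicate 1. Lower synthesis genes numbered 0 with a mean of at least 5 CPM, since Cbs was then not tested, and 1 Tribbles-related gene, Rfwd2, was called higher with upper-quartile scaling and with that filter (edgeR adjusted p = 0.0286 and 0.0348). Signs of uncalled genes near 0 turned for Gcn1l1 (-0.08 to 0.01), Sec61b (-0.10 to 0.07), Yme1l1 (-0.06 to 0.02) and Afg3l2 (0.00 to 0.04) over left-out libraries and for Eif2ak2 with upper-quartile scaling (0.00); the cause was not tested. Of 68 named genes, 8 crossed the threshold under some alternative. Low counts limit the precision of Atf3, Adm2, Fos and Cbs.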

Other observations

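Of 21 tested dimer partners of the regulators, the other bZIP factors, 6 were higher, 6 lower and 9 not called (median log2 fold change 0.05), shares near the 26.8% higher and 27.0% lower over all genes tested. Fos and Jun, the AP-1 factors of early responses, rose by 1.25 and 0.93 on the log2 scale (edgeR adjusted p = 7.19e-06 and 2.06e-06). Jun had 17.0, 22.2 and 17.8 CPM in Alox5-/- libraries and 10.8, 10.5 and 8.80 CPM in WT libraries, and Fos 4.20, 4.34 and 3.57 CPM against 1.34, 1.62 and 2.04 CPM. Replicate 2 was the highest Alox5-/- library for both. Nfe2l1, a regulator of proteasome genes, and Nfe2l2, the antioxidant factor NRF2, rose by 0.50 and 0.27. Fosl1, Cebpe, a factor of late granulocytes, and Fosl2 fell by 0.53, 0.47 and 0.43. Atf7 fell by 0.10, a call lost under upper-quartile scaling and on leaving out Alox5-/- replicate 1, Alox5-/- replicate 2 or WT replicate 1 (edgeR adjusted p of 0.0636 to 0.0911). Mafg, Creb1 and Atf1 were not called, Creb1 being called higher without WT replicate 2 (0.11; edgeR adjusted p = 0.011), and Batf3 was too low to test.

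Of 10 mitochondrial chaperones and proteases, 3 were higher, 2 lower and 5 not called (median 0.03), also near those shares over all genes. The chaperonin pair Hspd1 and Hspe1 fell by 0.44 and 0.45, while Hspa9, Dnaja3 and Lonp1 rose by 0.25, 0.19 and 0.11. The Lonp1 call was lost without WT replicate 3 (edgeR adjusted p = 0.0601). Yme1l1, Trap1 and Afg3l2 were not called. Of the relatives and partners of Trib3, Akt1 fell by 0.25, and Trib1 and Rfwd2, the ubiquitin ligase COP1, were not called (both 0.14).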
